A study of Mus musculus with 15 samples.

Results

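Synaptic adhesion molecules are the membrane-bound and secreted proteins that hold the presynaptic and postsynaptic sides of a synapse together. The genes described here were taken from a list of 37 symbols of known adhesion families, and all 37 were found among the 32285 genes of the matrices. Single-nucleus RNA-seq was performed on dorsal hippocampal tissue of 15 adult female wild-type C57BL6/J mice, with 1 library per mouse. The 6 NP mice were nulliparous virgins. The 4 ControlPP mice (control RE in the study) had mated, given birth, nursed and lived with their litters until weaning. The 5 StressPP mice (stress RE) went through the same reproductive experience, except that the litter was taken away for some hours each day and nesting material was reduced in the later postpartum period. All tissue was taken after weaning, and NP mice were age-matched. The comparisons ask whether reproductive experience leaves a lasting trace in the maternal hippocampus and whether postpartum stress alters it.

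At an excitatory or inhibitory synapse, presynaptic neurexins and LAR-type receptor tyrosine phosphatases reach across the cleft to a set of postsynaptic partners: neuroligins, LRRTMs, SLITRKs, IL1RAP-like proteins and others. Some of these bridges need a secreted linker of the C1q family (cerebellins and C1q-like proteins), which binds a neurexin on one side and a glutamate receptor or adhesion GPCR on the other. Latrophilins, which bind teneurins and FLRTs, and the BAI receptors are adhesion GPCRs, and netrin-Gs are lipid-anchored axonal ligands. In the hippocampus different principal cells and interneurons carry different sets of these molecules, and the sets are known for helping to decide which inputs contact which cell or dendritic layer.

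The libraries held between 40602582 and 96211264 UMIs (unique molecular identifiers, each 1 captured transcript molecule), with a median of 3993 to 8754 UMIs per barcode. After filtering and the removal of 10005 likely doublets, 123901 of 134019 barcodes were kept as nuclei, and 115160 of them (92.9%) fell into 26 classes named from marker genes. A class is called "-like" because the name rests on those markers only. The tissue punches were labelled dorsal hippocampus but also held thalamic, habenular, striatal, choroid plexus and meningeal nuclei, as their markers show. Habenula-like nuclei were a median of 1.99% of the nuclei of a mouse in NP mice (0.190% to 4.77%). They were 0.135% in ControlPP (0% to 0.278%) and 0.166% in StressPP mice (0% to 1.05%). Library pairs shared 6 to 47 barcodes (median 21 over 105 pairs). Batch 1 of the 3 batches named in the labels held 2 NP mice, 1 StressPP mouse and no ControlPP mouse, while batches 2 and 3 held 2 mice of every group.

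A level is given in CPM, the UMIs of a gene summed over the nuclei of 1 class in 1 mouse and scaled to the total of those nuclei, for mice with at least 10 nuclei of that class. Levels of different genes are not compared with each other, and the order of classes for a gene is a description with no test. The matrices were not corrected for RNA released into the nuclei suspension, so low levels of an abundant neuronal gene in glia were not separated from that source.

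The 3 mice of batch 1 (NP replicates 1 and 2 and StressPP replicate 2) lay together at one end of several genes. Of the 33 genes for which all 3 of them had the gene's highest class, they were the lowest mice for 4 (Ptprd, Il1rapl1, Il1rapl2 and Adgrb3) and the highest mice for 4 (Adgrb2, C1ql1, Nlgn2 and Ntng2). Adgrb3 in CA1-like nuclei, for example, was at 2953, 3835 and 4059 CPM in these mice and at 4260 CPM or more in every other. Batches 2 and 3 were not compared with each other in this way, and C1ql3, described below, differed between them. Batch 1 held no ControlPP mouse, so batch 1 and group cannot be told apart for its NP mice against ControlPP mice, and the comparisons are given below also with batch as a term. NP replicate 2, the library with the lowest total and the lowest median depth, was often the furthest of the 3. Among the 20 classes with all 15 mice it held the highest level of Adgrl1 in 19, of Adgrb1 in 17, of Ptprs in 16 and of Nrxn2 and Adgrb2 in 13 each. It held the lowest level of Adgrb3 in 12 classes, of Lrfn5 and Adgrl3 in 11 each, and of Lrrtm4 and Il1rapl1 in 9 each. The 17 genes that span at least 100 kb of the genome had a median of 1 class in which this mouse was highest and 6 in which it was lowest, and the 20 shorter genes 3.5 and 0. Some genes went the other way: Tenm4, at 740 kb, was highest in 8 classes and lowest in 0, and Lrrtm1, at 15.1 kb, was lowest in 6 and highest in 0. Leaving this mouse out left the highest class of all 37 genes as it was, and the numbers of small p-values in the group comparisons are given below also without it.

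The genes differed widely in how their levels were spread over the classes. For 19 of the 37 the highest class was at least 4-fold the median class, and 11 were higher in their highest class than in the next class in every mouse that had both. Levels of the highest and the next class did not overlap over mice for 5 genes: Nrxn2, Nrxn3, C1ql1, Tenm1 and Ntng1. Oligodendrocyte precursor-like nuclei were the highest class of 7 genes. Dentate granule-like and thalamic excitatory-like nuclei were highest for 4 each, and CA1-like, subiculum-like and Cajal-Retzius-like nuclei for 3 each.

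**Figure D1:**
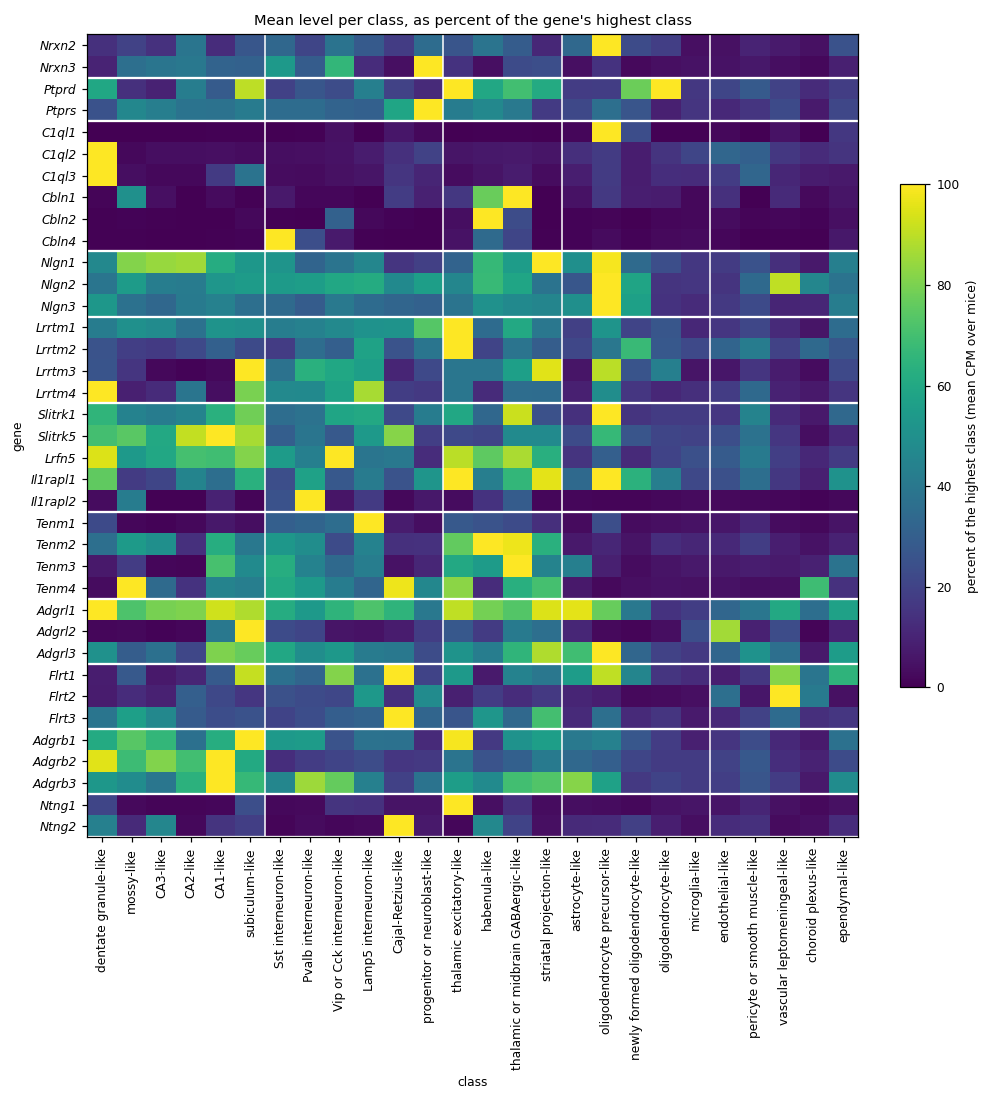
Mean level of each of the 37 genes (rows, in the order of their roles) in each of the 26 classes (columns), as a percent of the gene's highest class; the colour runs from 0 (dark) to 100 (yellow). C1ql1, Cbln2, Cbln4, Tenm1 and Ntng1 each have 1 bright cell in a mostly dark row, whereas Adgrl1 and Nlgn1 are bright in many classes.

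Neurexins are presynaptic hubs to which neuroligins, LRRTMs and the secreted linkers bind. Nrxn2 was highest in oligodendrocyte precursor-like nuclei, at 722 ± 87.3 CPM (SD, n = 15), with a lowest mouse of 555, a median of 718 and a highest of 950. CA2-like nuclei came next at 280 ± 64.6 CPM, and no precursor value overlapped a CA2 value. Within the hippocampal principal classes Nrxn2 was highest in CA2 in all 11 mice that had all 6 of these classes. Nrxn3 was highest in the progenitor or neuroblast-like class, which carries Dlx1, Dlx2 and Dcx, at 27327 ± 3112 CPM (n = 10; lowest 21315, median 28337, highest 30771). Among interneurons Nrxn3 was ordered the same way at both ends in 15 of 15 mice, with Vip or Cck-like cells at 18140 CPM on top and Lamp5-like cells at 3432 CPM lowest. Dentate granule-like nuclei had the lowest Nrxn3 of the principal classes in 11 of 11 mice, at 2714 ± 287 CPM.

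The LAR-type phosphatases Ptprd and Ptprs are presynaptic receptors for SLITRKs and IL1RAP-like proteins. Ptprd reached 6098 ± 538 CPM in thalamic excitatory-like nuclei (n = 15; lowest 4430, median 6171, highest 6632) and 6078 ± 358 CPM in oligodendrocyte-like nuclei, classes whose order held in 9 of 15 mice and whose ranges overlapped. Along the oligodendrocyte classes its mean was 1096 CPM in precursors, 4725 in newly formed and 6078 in mature oligodendrocyte-like nuclei, and precursors were the lowest of these in all 15 mice. Among the hippocampal principal classes Ptprd was at 5479 CPM in subiculum-like and at 580 CPM in CA3-like nuclei, the top and bottom in 11 of 11 mice. Ptprs was highest in the progenitor or neuroblast-like class at 706 ± 115 CPM (n = 10), above Cajal-Retzius-like nuclei (415 ± 81.7 CPM) in 10 of 10 mice although the ranges overlapped.

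The secreted linkers were each concentrated in a few classes. C1ql2 and C1ql3, which dentate granule cells are known to release from mossy fibre terminals, were both highest in dentate granule-like nuclei. C1ql2 was at 49.9 ± 19.8 CPM there (n = 15; lowest 20.0, median 49.5, highest 90.7), and no other principal class had a mean above 1.99 CPM. Outside the principal cells endothelial-like nuclei came next at 16.4 ± 13.7 CPM, below granule in 14 of 15 mice with overlapping ranges. C1ql3 was at 310 ± 142 CPM (lowest 114, median 256, highest 581), with subiculum-like nuclei next at 118 ± 43.4 CPM and CA3-like nuclei lowest at 6.55 CPM. Its granule level split by batch, with every batch 2 mouse at 309 to 507 CPM and every batch 3 mouse at 114 to 256 CPM. The batch 1 mice were at 147, 230 and 581 CPM. In CA1-like nuclei C1ql3 was at 57.6 to 80.9 CPM in batch 2 and at 27.5 to 41.3 CPM in batch 3. Both genes were higher in granule than in every other principal class in 11 of 11 mice. When each nucleus was thinned to 1000 UMIs, 25.5% of granule-like nuclei carried a C1ql3 UMI against 4.32% of oligodendrocyte-like nuclei, and 4.42% against 0.864% a C1ql2 UMI (82.2% against 9.60% and 31.3% against 2.04% before thinning, at median depths of 8516 and 2494 UMIs). The promoter of C1ql2 is shown because this linker had its highest level in 1 principal class. It is the 250 bases before the annotated start, from RefSeq on GRCm38.p6, at chr1:120340332-120340581 on the plus strand, and capitals mark the match to the E-box motif CANNTG, which reads the same on both strands.
C1ql2: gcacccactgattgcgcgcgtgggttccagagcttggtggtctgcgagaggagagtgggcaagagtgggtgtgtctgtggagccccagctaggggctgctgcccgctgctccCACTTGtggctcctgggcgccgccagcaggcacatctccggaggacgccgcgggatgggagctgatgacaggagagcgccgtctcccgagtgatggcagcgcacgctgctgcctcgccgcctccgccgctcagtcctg
It held 1 match, the median number over 32851 promoters of this length, of which 66.2% held at least 1. Its GC content was 68.8%, against a median of 52.4% over those promoters.

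C1ql1, the linker of climbing fibre synapses in the cerebellum, was low in neurons here, where its highest class mean was 6.98 CPM in Cajal-Retzius-like nuclei. It was highest in oligodendrocyte precursor-like nuclei at 119 ± 23.8 CPM (n = 15; lowest 87.4, median 119, highest 170), came next in newly formed oligodendrocyte-like nuclei at 28.1 ± 18.9 CPM, and was at 0.795 ± 0.317 CPM in mature oligodendrocyte-like nuclei. The step from precursor to newly formed cells was found in 15 of 15 mice without overlap. After thinning to 1000 UMIs 10.5% of precursor-like nuclei carried a C1ql1 UMI, against 0.0885% of oligodendrocyte-like nuclei.

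The 3 cerebellins, which bridge neurexins to delta-type glutamate receptors, were spread unevenly. Cbln4 was highest in Sst interneuron-like nuclei at 26.4 ± 14.7 CPM (n = 15; lowest 11.9, median 22.3, highest 65.2) and exceeded Pvalb, Vip or Cck and Lamp5-like cells in 14 of 15 mice. Cbln2 was highest in habenula-like nuclei at 109 ± 45.3 CPM (n = 12; lowest 55.6, median 101, highest 205), and among interneurons it was at 34.2 ± 12.2 CPM in Vip or Cck-like cells and at or below 2.21 CPM in the other classes. Cbln1 was low everywhere, at 6.53 ± 9.25 CPM in thalamic or midbrain GABAergic-like nuclei (n = 15; lowest 0, median 4.37, highest 38.3). Without StressPP replicate 1, the mouse at 38.3, the mean of this class was 4.26 CPM (n = 14) and that of habenula-like nuclei, then the leading class, 4.65 CPM (n = 11).

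Neuroligins are postsynaptic partners of neurexins, with Nlgn1 known from excitatory and Nlgn2 from inhibitory synapses. They were present in many classes. Nlgn1 had means between 5211 and 6174 CPM in striatal projection-like, oligodendrocyte precursor-like, CA2-like and CA3-like nuclei, and its highest class led the next in 4 of 8 mice. Nlgn2 (91.9 ± 18.1 CPM, n = 15) and Nlgn3 (mean 113 CPM, n = 15; lowest 84.2, median 111, highest 143) were both highest in oligodendrocyte precursor-like nuclei. In the hippocampal principal classes Nlgn2 differed by 1.41-fold between its highest and lowest mean, with the same leading class in 5 of 11 mice. All 3 neuroligins had their highest mean in precursors, an intermediate one in newly formed and the lowest in mature oligodendrocyte-like nuclei (13.7 CPM for Nlgn2 and 16.5 CPM for Nlgn3), and precursors led in 15 of 15 mice.

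LRRTMs are postsynaptic leucine-rich proteins of excitatory synapses that compete with neuroligins for neurexins. Lrrtm3 and Lrrtm4 differed between the hippocampal fields. Lrrtm4 was at 9197 ± 781 CPM in dentate granule-like nuclei (n = 15; lowest 6927, median 9206, highest 10151) and at 346 ± 153 CPM in CA1-like nuclei, 26.6-fold apart and at the top and bottom of the principal classes in 11 of 11 mice. Over all classes Lamp5 interneuron-like nuclei came next in Lrrtm4, at 8007 ± 1502 CPM, below granule in 13 of 15 mice with overlapping ranges. Subiculum-like nuclei were also high in Lrrtm4, at 7358 ± 1150 CPM (n = 13). Lrrtm3 was at 802 ± 132 CPM in subiculum-like nuclei (n = 13; lowest 623, median 756, highest 1069), the top of the principal classes in 11 of 11 mice, against 9.20 CPM in CA2-like and 17.0 CPM in CA3-like nuclei. Over all classes striatal projection-like nuclei came next in Lrrtm3, at 767 ± 68.2 CPM (n = 8). They were below subiculum in 4 of 6 mice with overlapping ranges, and oligodendrocyte precursor-like nuclei followed at 718 CPM. Lrrtm1 and Lrrtm2 were highest in thalamic excitatory-like nuclei, at 80.3 ± 14.1 and 57.3 ± 9.81 CPM (n = 15), and varied little within the hippocampus (1.38-fold and 1.81-fold between principal classes).

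The other leucine-rich or immunoglobulin-type partners include Slitrk1, Slitrk5 and Lrfn5 and the IL1RAP-like proteins, which bind LAR-type phosphatases. Il1rapl2 differed most between its highest and lowest class among these 5 genes, with 1790 ± 779 CPM in Pvalb interneuron-like nuclei (n = 15; lowest 487, median 1746, highest 3295). Mossy-like nuclei came next at 752 ± 166 CPM, and CA2-like nuclei, at 8.37 CPM, lay 214-fold below the Pvalb class. The 3 lowest Pvalb values were those of batch 1, at 487 and 531 CPM in its NP mice and 954 CPM in StressPP replicate 2, and every other mouse was at 1374 CPM or more. These NP mice had 16 Pvalb-like nuclei each and StressPP replicate 2 had 35. NP replicate 3, the highest mouse at 3295 CPM, also had 16. Among the sub-clusters joined in this class, only that led by Tac1 and Qrfpr (126 nuclei) had Il1rapl2 among its leading genes. The part of sub-cluster make-up in these values was not tested. Il1rapl1, the relative of Il1rapl2, was broad, with 3727 ± 380 CPM in oligodendrocyte precursor-like and 3716 ± 434 CPM in thalamic excitatory-like nuclei, an order that held in 7 of 15 mice. Slitrk1 was highest in oligodendrocyte precursor-like nuclei (56.3 ± 8.55 CPM), Slitrk5 in CA1-like nuclei (71.0 ± 9.59 CPM) and Lrfn5 in Vip or Cck interneuron-like nuclei (1698 ± 233 CPM), each overlapping with its next class.

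Teneurins are large paired proteins through which pre- and postsynaptic cells of matching type recognize each other. Tenm1 was at 2316 ± 449 CPM in Lamp5 interneuron-like nuclei (n = 15; lowest 1535, median 2453, highest 2891), above every Vip or Cck-like value (827 ± 135 CPM). Tenm3, which joins CA1 to subiculum along the proximodistal axis, was at 1444 ± 622 CPM in CA1-like and 974 CPM in subiculum-like nuclei but at 25.0 ± 15.4 CPM in CA2-like and 33.3 CPM in CA3-like nuclei. Over all classes it was highest in thalamic or midbrain GABAergic-like nuclei (2037 ± 474 CPM, n = 15; lowest 1413, median 2086, highest 3147). These led CA1-like nuclei, the next class, in 10 of 15 mice with overlapping ranges. Tenm4 led in mossy-like nuclei at 1651 ± 302 CPM (n = 13) and was lowest of the principal classes in dentate granule-like nuclei at 53.0 ± 11.7 CPM, an order found in 11 of 11 mice. Cajal-Retzius-like nuclei were next in Tenm4, at 1608 ± 246 CPM with overlapping ranges, and mossy-like nuclei led in 9 of 13 mice. Tenm2 was highest in habenula-like nuclei (7594 ± 2632 CPM, n = 12; lowest 4259, median 7552, highest 14201), with thalamic or midbrain GABAergic-like nuclei at 7394 ± 965 CPM, and the order held in 5 of 12 mice.

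Latrophilins are the postsynaptic receptors of teneurins and FLRTs in CA1. Adgrl2 was at 484 ± 86.2 CPM in subiculum-like nuclei (n = 13; lowest 299, median 477, highest 654) and at 194 CPM in CA1-like nuclei, while CA3-like nuclei were at 4.04 ± 2.41 CPM, 120-fold below subiculum. Endothelial-like nuclei, at 417 ± 122 CPM, were the next class overall. Adgrl3 was highest in oligodendrocyte precursor-like nuclei (2196 ± 156 CPM) and, within the principal classes, in CA1-like nuclei at 1769 CPM against 471 CPM in CA2-like nuclei. Adgrl1 had the smallest ratio of highest to median class among the 37 genes, with 177 ± 39.1 CPM in dentate granule-like nuclei, 1.46-fold the median class.

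FLRTs are leucine-rich ligands of latrophilins. Flrt2 was highest outside the neurons, at 1128 ± 253 CPM in vascular leptomeningeal-like nuclei (n = 15; lowest 729, median 1102, highest 1505), and exceeded Lamp5 interneuron-like nuclei (600 ± 116 CPM) in 15 of 15 mice. Lamp5-like cells had the most Flrt2 of the interneurons in 15 of 15 mice. Flrt1 and Flrt3 were highest in Cajal-Retzius-like nuclei, the reelin-producing cells of the molecular layer, at 71.8 ± 28.3 and 109 ± 32.5 CPM. Flrt1 also set subiculum-like nuclei (65.6 CPM) apart from CA3-like nuclei (4.83 CPM), with subiculum on top in 11 of 11 mice.

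The BAI receptors are adhesion GPCRs that bind C1q-like proteins and shape excitatory synapses. Adgrb2 was at 170 ± 47.4 CPM in CA1-like nuclei (n = 15; lowest 138, median 156, highest 329) and Adgrb3 at 4361 ± 469 CPM in the same class. Dentate granule-like nuclei came next in Adgrb2, at 162 ± 39.7 CPM, below CA1 in 11 of 15 mice with overlapping ranges. Adgrb3 was lowest of the principal classes in CA3-like nuclei (1705 ± 207 CPM), and both ends held in 11 of 11 mice. Adgrb3 was also high in astrocyte-like nuclei at 3572 ± 371 CPM, the most of the 4 glial classes in 15 of 15 mice. Adgrb1 was highest in subiculum-like (296 ± 92.1 CPM) and thalamic excitatory-like nuclei (292 ± 117 CPM), whose order held in 7 of 13 mice.

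Netrin-Gs mark axons and bind NGL proteins on dendrites. Ntng1 was at 3745 ± 285 CPM in thalamic excitatory-like nuclei (n = 15; lowest 2946, median 3791, highest 4126), above every value of subiculum-like nuclei (902 ± 81.8 CPM, n = 13). Dentate granule-like nuclei followed at 788 CPM, while the mossy, CA1, CA3 and CA2-like means were 99.2, 62.0, 50.3 and 46.7 CPM. Ntng2 was highest in Cajal-Retzius-like nuclei at 243 ± 44.5 CPM (n = 15; lowest 195, median 232, highest 343), and within the principal classes in CA3-like (112 ± 35.5 CPM) and dentate granule-like nuclei (106 CPM), against 5.55 CPM in CA2-like nuclei.

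Oligodendrocyte precursors receive synapses from neurons. Of the oligodendrocyte precursor, oligodendrocyte, astrocyte and microglia-like classes, the precursors had the highest mean for 23 of the 37 genes. The sum over all 37 genes had a median of 28367 CPM in the precursor-like nuclei of NP mice, against 16416 CPM in astrocyte-like, 16178 CPM in oligodendrocyte-like and 10835 CPM in microglia-like nuclei. Tenm3 stood out in astrocyte-like nuclei at 881 ± 77.5 CPM, 8.11-fold its level in oligodendrocyte-like nuclei and the top of the 4 glial classes in 15 of 15 mice. Adgrl2 was highest of the 4 in microglia-like nuclei in 15 of 15 mice, at 116 ± 21.4 CPM against 12.0 CPM in precursors, and Ntng1 was too, at 213 ± 79.2 CPM, with oligodendrocyte-like nuclei next at 179 ± 74.0 CPM and overlapping ranges. Genes that mark neurons were also present in microglia-like nuclei, where the transmitter genes Slc17a6, Slc17a7, Gad1, Gad2 and Slc32a1 summed to 63.7 to 146 CPM in NP, 88.9 to 128 CPM in ControlPP and 98.1 to 122 CPM in StressPP mice. In the same nuclei the 37 genes summed to 4194, 10835 and 12964 CPM (lowest, median, highest) in NP mice, to 6086, 10098 and 11779 CPM in ControlPP mice and to 2962, 6254 and 10908 CPM in StressPP mice. The 7 thalamic excitatory markers summed to 708, 843 and 1037 CPM there in NP mice, to 692, 768 and 859 CPM in ControlPP mice and to 613, 687 and 763 CPM in StressPP mice. The medians of the markers and of the 37 genes were both highest in NP and lowest in StressPP mice, while the groups overlapped for each sum. The 6 dentate granule markers ran the other way, with medians of 1272, 1349 and 1363 CPM in NP, ControlPP and StressPP mice. Neither marker list is specific to neuronal RNA in glia. The granule markers had a median of 3107 CPM in oligodendrocyte-like nuclei of NP mice, above their median of 2661 CPM in dentate granule-like nuclei. The thalamic markers had a median of 6175 CPM in astrocyte-like nuclei of NP mice. The part of neuronal RNA in the glial levels was not tested.

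The groups were compared over mice, on UMI counts summed per mouse and class, with edgeR's quasi-likelihood test in 24 classes (habenula-like and striatal projection-like nuclei came from too few mice). P-values then measure the spread between mice. Fewer nuclei of a subtype within a class and less RNA per nucleus cannot be told apart in such sums. Of the 888 combinations of a gene and a class, 679 passed the filter on low counts in each comparison and 209 did not. The 3 comparisons share their groups in pairs, so each is given on its own. Tests of a gene in several classes come from the same mice, so counts of tests are not counts of independent results. The shares of all genes given beside them were not matched to the adhesion genes for level.

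No adhesion gene passed the threshold in any class in any comparison (edgeR, adjusted p under 0.05 over all genes of the class). Over all genes and classes the same rule called 0.000489% of tests for ControlPP minus NP, 0.00196% for StressPP minus ControlPP and 0% for StressPP minus NP. At an unadjusted p under 0.05 there were 39 of 679 adhesion tests (5.74%) in ControlPP minus NP, 6 higher and 33 lower, where all genes gave 3.25% (1.35% higher and 1.9% lower). StressPP minus ControlPP had 21 (3.09%; 8 higher and 13 lower), against 2.49% of all genes (1.29% and 1.19%). StressPP minus NP had 71 (10.5%; 13 higher and 58 lower), against 3.95% of all genes (1.67% and 2.29%). The median log2 fold change of the adhesion genes was -0.02, -0.04 and -0.10 in these comparisons, and that of all genes was -0.00 in each. DESeq2 called 0, 1 and 0 adhesion tests, beside 3, 34 and 0 tests over all genes. With batch as a term the unadjusted counts were 27 (3.98%, against 2.43% of all genes), 44 (6.48%, against 3.26%) and 76 (11.2%, against 4.40%). Leaving out single mice moved the counts of members and the shares of all genes the same way in the cases that follow. Without NP replicate 2 there were 22 in ControlPP minus NP (3.50%, against 2.32% of all genes) and 46 in StressPP minus NP (7.31%, against 3.06%). Without NP replicate 4 they were 67 (10.3%, against 4.23%) and 125 (19.3%, against 5.49%). In StressPP minus ControlPP there were 57 without StressPP replicate 5 (8.35%, against 4.68%).

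**Figure D2:**
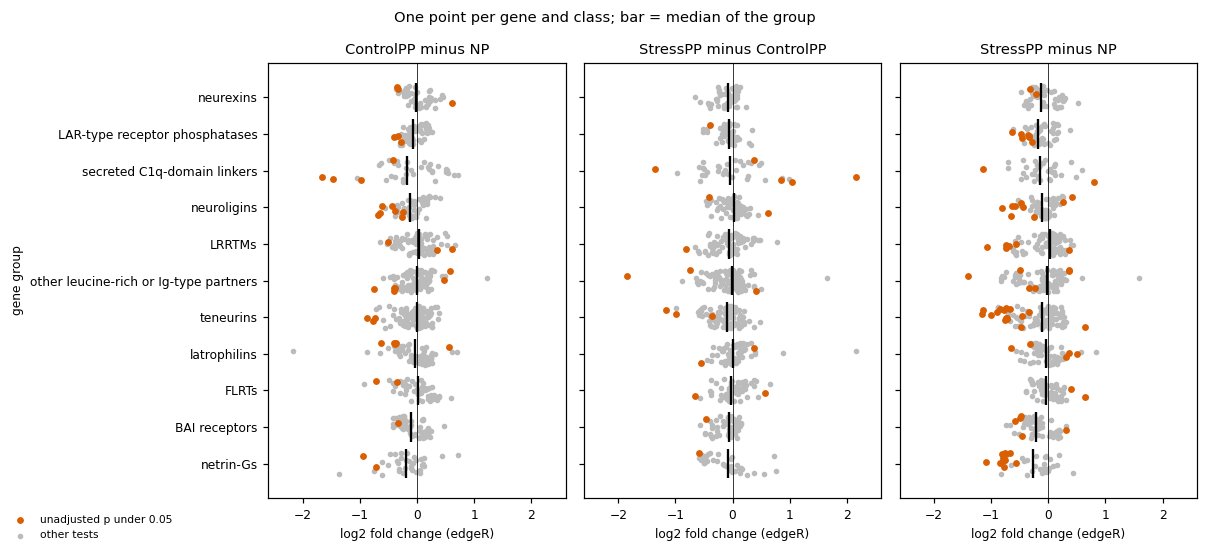
Log2 fold change (edgeR) of each gene in each class where it was tested, by role, for the 3 comparisons; orange points have an unadjusted p under 0.05, grey points do not, and black bars are the medians of a role. No point passed the adjusted threshold, and in StressPP minus NP 58 of the 71 orange points lie below 0, with netrin-G and teneurin points prominent among them.

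In StressPP minus NP, 34 of 253 adhesion tests in the 10 glial, vascular and ventricular classes had an unadjusted p under 0.05 and were lower, 2 were higher (14.2% in all, against 4.38% of all genes), and the median log2 fold change was -0.19. In the 14 neuronal and progenitor classes 24 of 426 were lower and 11 higher (8.22%, against 3.71% of all genes), with a median of -0.03. In ControlPP minus NP it was the neuronal and progenitor classes that held more of the lower tests, with 26 of 426 lower and 4 higher (7.04%, against 3.49% of all genes), beside 7 of 253 lower and 2 higher in the others (3.56%, against 2.82%). In StressPP minus ControlPP they were 10 lower and 6 higher (3.76%, against 2.08%) and 3 lower and 2 higher (1.98%, against 3.20%). For StressPP minus NP in the glial, vascular and ventricular classes, splitting the members at a genomic span of 100 kb, a limit chosen after the values were seen, gave 28 lower tests of 158 (17.7%) with a median of -0.37 for the 17 longer genes and 6 of 95 (6.32%) with a median of -0.10 for the 18 shorter ones tested. Among all genes in the same classes 4.99% of tests of long genes and 1.69% of tests of shorter genes were lower, with medians of -0.05 and 0.01. In the neuronal and progenitor classes 11 of 234 tests of long members (4.70%) and 13 of 192 of shorter ones (6.77%) were lower, with medians of 0.09 and -0.13, where all long and all shorter genes gave 2.61% and 2.05% with medians of 0.02 and -0.01. For ControlPP minus NP in the neuronal and progenitor classes 6 of 234 tests of long members (2.56%) and 20 of 192 of shorter ones (10.4%) were lower, where all long and all shorter genes gave 1.36% and 2.24%. The part of gene span in these values was not tested.

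By role, the netrin-Gs had 11 lower and 0 higher unadjusted tests of 36 in StressPP minus NP (median log2 fold change -0.26) and the teneurins 15 lower and 1 higher of 95 (-0.11), where 2.29% of tests of all genes were lower and 1.67% higher. The LAR-type phosphatases had 7 lower and 0 higher of 48 (-0.17), and the neuroligins 7 lower and 2 higher of 60 (-0.10). Lower tests were also more numerous for the LRRTMs (5 against 1 of 77), the BAI receptors (4 against 1 of 61), the other leucine-rich or immunoglobulin-type partners (4 against 2 of 97) and the neurexins (2 against 0 of 46). The secreted linkers had 1 each way of 36, whereas higher tests outnumbered lower ones for the latrophilins (3 against 2 of 65) and the FLRTs (2 against 0 of 58). All 11 netrin-G tests were of Ntng1 in classes of the same mice, so they are not independent. The fold change of Ntng1 was negative in 20 of 24 classes with a median of -0.51. In oligodendrocyte-like nuclei Ntng1 had a lowest, median and highest level of 98.0, 240 and 331 CPM in NP mice, of 123, 187 and 210 CPM in ControlPP mice and of 49.7, 136 and 203 CPM in StressPP mice, so the groups overlapped. This class joined 2 clusters in different proportions, the larger of which held 50.2% of its NP, 58.6% of its ControlPP and 68.7% of its StressPP nuclei, and the part of that in the Ntng1 values was not tested. The 7 thalamic excitatory markers, from the class with the most Ntng1, had medians of 481, 379 and 376 CPM in the same nuclei. In CA3-like nuclei, where Ntng1 was at 41.0 to 99.8 CPM in NP, 35.0 to 62.7 CPM in ControlPP and 17.4 to 43.3 CPM in StressPP mice, those markers had medians of 651, 662 and 585 CPM. That list holds Tcf7l2, which was also used to name newly formed oligodendrocyte-like nuclei, so its sum in oligodendrocyte-like nuclei need not be thalamic RNA. The part of thalamic RNA in the Ntng1 values was not tested.

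The smallest unadjusted p-value of any adhesion gene was that of Il1rapl2 in Vip or Cck interneuron-like nuclei. Its level was 15.8, 38.7, 40.7, 54.1 and 55.8 CPM in the StressPP mice and 108, 206, 171 and 132.5 CPM in the ControlPP mice. In NP mice it was at 41.2 CPM at the lowest, 124 at the median and 208 at the highest. All StressPP mice lay below all ControlPP mice, while NP mice overlapped both. The log2 fold change was -1.84 ± 0.34 (SE) for StressPP minus ControlPP (edgeR, adjusted p = 0.131) and -1.40 ± 0.33 for StressPP minus NP (adjusted p = 0.447), and it was 0.44 ± 0.30 for ControlPP minus NP (adjusted p = 0.959). Within batch 2 the means were 169 CPM in ControlPP and 55.0 CPM in StressPP mice, and within batch 3 they were 139 and 28.2 CPM. Over 23 alternatives the log2 fold change for StressPP minus ControlPP ran from -2.01 to -1.65, and the adjusted p was under 0.05 in 5 of them and at its highest, 1.00, without ControlPP replicate 2. The fit with batch as a term was among the 5 (-1.95, adjusted p = 0.0247).

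The Vip or Cck class joined 4 sub-clusters, which differed in Il1rapl2 and in size between groups. Pooled over mice, and so with no replicate check, the sub-cluster led by Cadps2 and Syt6 held 252 Il1rapl2 UMIs in 58 ControlPP nuclei, 151 in 55 NP nuclei and 67 in 44 StressPP nuclei. Only 24, 17 and 11 of these nuclei carried any Il1rapl2 UMI. The sub-cluster led by Vip and Sema5b held 56 UMIs in 52 ControlPP, 128 in 71 NP and 34 in 73 StressPP nuclei, of which 10, 21 and 9 carried any. A further sub-cluster held 55 UMIs in 51 ControlPP, 16 in 48 NP and 25 in 47 StressPP nuclei. There 12, 11 and 12 nuclei carried any, so its group values differed in UMIs per carrying nucleus. The sub-cluster led by Slc17a8 held 7, 5 and 2 UMIs in 65, 44 and 58 nuclei of these groups. As pooled CPM, StressPP nuclei were below ControlPP nuclei in the first (74.1 against 316), the second (51.3 against 136) and the third (50.8 against 141), where NP nuclei were lower still (36.0), and the counts of the last were too few to compare. The 5 markers of Pvalb interneurons, the class with the most Il1rapl2, summed to 1965 to 2692 CPM in the Vip or Cck class of ControlPP mice and to 1919 to 2677 CPM in that of StressPP mice, most of it Kcnc2, and their part in the result was not tested.

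The smallest p-values for ControlPP minus NP were of 5 genes in 5 classes, none with an adjusted p under 0.93 (edgeR). Slitrk5, a postsynaptic partner of LAR-type phosphatases, was at 44.3 CPM at the lowest, 46.9 at the median and 60.6 at the highest in CA3-like nuclei of NP mice and at 40.4, 33.7, 32.3 and 36.9 CPM in ControlPP mice, without overlap (log2 fold change -0.38 ± 0.09, adjusted p = 0.933). StressPP mice, at 38.5 to 43.5 CPM, also lay below all NP mice. Cbln2 in thalamic or midbrain GABAergic-like nuclei was at 25.0, 29.5 and 36.9 CPM (lowest, median, highest) in NP mice and at 20.4, 7.71, 10.1 and 21.4 CPM in ControlPP mice, again without overlap (-0.99 ± 0.24, adjusted p = 1.00). StressPP mice were at 40.0, 20.3, 30.6, 26.2 and 23.9 CPM, which gave the same gene a place among the smallest p-values for StressPP minus ControlPP (0.84 ± 0.25, adjusted p = 1.00). The 7 habenular markers, from the class with the most Cbln2, summed to 141 to 205 CPM in these nuclei of NP mice, to 124 to 160 CPM in ControlPP and to 84.0 to 225 CPM in StressPP mice, and their part in the result was not tested. Most of that sum was Nwd2, with a mean of 137 CPM in NP mice. In habenula-like nuclei the same 7 markers had a median of 5169 CPM. Habenula-like nuclei themselves had their highest median share in NP mice.

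Il1rapl1 in Sst interneuron-like nuclei had 516, 782 and 884 CPM (lowest, median, highest) in NP mice and 1189, 1108, 1026 and 1020 CPM in ControlPP mice. All ControlPP values were above all NP values, with a log2 fold change of 0.59 ± 0.16 (adjusted p = 0.930). StressPP mice, at 800 to 1043 CPM, overlapped both groups. The Sst class joined 3 sub-clusters, of which the one led by Sst and Lama4 held 18.6% of its NP, 32.3% of its ControlPP and 36.5% of its StressPP nuclei, and the part of that in the values was not tested. Nlgn3 in Vip or Cck interneuron-like nuclei was at 55.3 ± 11.8 CPM in NP, 32.6 ± 8.04 in ControlPP and 44.0 ± 6.54 CPM in StressPP mice (-0.68 ± 0.21 for ControlPP minus NP, adjusted p = 0.959), with overlap. C1ql1 in its own highest class, oligodendrocyte precursor-like nuclei, was at 105, 121 and 170 CPM (lowest, median, highest) in NP mice and at 108, 93.0, 87.4 and 91.1 CPM in ControlPP mice (-0.43 ± 0.13, adjusted p = 1.00), and the groups overlapped. The 3 mice of batch 1 held the highest C1ql1 values (157 and 170 CPM in NP and 139 CPM in StressPP mice), and within batches 2 and 3 the NP means were 108 and 121 CPM against 92.0 and 98.0 CPM in ControlPP mice.

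In StressPP minus ControlPP, Cajal-Retzius-like nuclei gave 2 of the 5 smallest p-values. Of all genes tested in this class, 7.50% had an unadjusted p under 0.05 (edgeR), the largest share of any class in this comparison. Over all classes the share was 2.49%. Of the 24 adhesion tests in the class, 6 were lower and 0 higher at that limit. Lrrtm4 was at 2263, 1459, 2862 and 2811 CPM in ControlPP mice and at 2241, 1691, 1001, 432 and 1311 CPM in StressPP mice there (log2 fold change -0.81 ± 0.26, adjusted p = 0.327), with 1254 to 1866 CPM in NP mice. Il1rapl1 was at 1346, 763, 1531 and 1095 CPM and at 790, 855, 530, 448 and 923 CPM (-0.74 ± 0.21, adjusted p = 0.274), with 752 to 1344 CPM in NP mice. ControlPP and StressPP mice overlapped for both genes. With the same number of nuclei per mouse the Lrrtm4 value was -1.37 (adjusted p = 0.0254). The 6 dentate granule markers, from the class with the most Lrrtm4, summed to 517 to 919 CPM in these nuclei of ControlPP mice and to 332 to 716 CPM in those of StressPP mice. The 5 oligodendrocyte precursor markers, from the class with the most Il1rapl1, summed to 112 to 186 CPM and to 83.1 to 123 CPM. The part of either list in the results was not tested.

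The remaining genes with the smallest p-values lay outside neurons. Tenm1 in pericyte or smooth muscle-like nuclei was at 501, 184, 319 and 248 CPM in ControlPP mice and at 74.8, 200, 90.8, 105 and 228 CPM in StressPP mice, with 211, 315 and 417 CPM (lowest, median, highest) in NP mice. Its log2 fold change was -1.17 ± 0.33 for StressPP minus ControlPP (adjusted p = 0.973) and -1.14 ± 0.31 for StressPP minus NP (adjusted p = 0.588). Lrrtm3 in the same nuclei was at 165 ± 48.9 CPM in NP and 75.8 ± 29.6 CPM in StressPP mice (-1.07 ± 0.31, adjusted p = 0.657). Both sets overlapped. Tenm2 in oligodendrocyte precursor-like nuclei was at 915 ± 161 CPM in NP, 849 ± 153 in ControlPP and 661 ± 88.5 CPM in StressPP mice (StressPP minus NP -0.45 ± 0.13, adjusted p = 1.00). The habenular markers, from the class with the most Tenm2, had medians of 32.2, 17.8 and 10.4 CPM in the same nuclei of the 3 groups. In habenula-like nuclei their median was 5169 CPM. As stated above, the share of habenula-like nuclei also differed between the groups. The part of habenular RNA in the Tenm2 values was not tested. Tenm3 in choroid plexus-like nuclei was at 235 ± 65.0 CPM in 5 NP mice and 138 ± 34.7 CPM in 4 StressPP mice (-0.72 ± 0.21, adjusted p = 1.00). The lowest NP mouse, at 167 CPM, overlapped the highest StressPP mouse, at 180 CPM, and with batch as a term the log2 fold change was -0.40 (adjusted p = 1.00). The 7 markers of thalamic or midbrain GABAergic-like nuclei, the class with the most Tenm3, were also present in choroid plexus-like nuclei. Their medians there were 1104 CPM in NP, 1249 in ControlPP and 1209 in StressPP mice, most of it Mecom, against 501 CPM in their own class. Their part was not tested.

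A pair of further lists bears on the same synapses. The first held 22 other adhesion genes (such as the LAR-type phosphatase Ptprf, the calsyntenins and the MDGA proteins), and none of its 392 tests passed the threshold in any comparison (edgeR). The numbers with an unadjusted p under 0.05 were 4 higher and 10 lower for ControlPP minus NP, 2 and 6 for StressPP minus ControlPP, and 6 and 14 for StressPP minus NP. These are 3.57%, 2.04% and 5.10% of its tests, beside the 3.25%, 2.49% and 3.95% of all genes. Its smallest p-values included Il1rap, a postsynaptic partner of Ptprd, in Cajal-Retzius-like nuclei, with log2 fold changes of 0.89 ± 0.22 (ControlPP minus NP, adjusted p = 0.275) and -0.91 ± 0.23 (StressPP minus ControlPP, adjusted p = 0.203). The other genes with its smallest p-values were Cadm1 in Sst-like (0.48) and Slitrk3 in CA2-like nuclei (-0.61) for ControlPP minus NP, Cadm3 (0.73) and Igsf21 (0.68) in Cajal-Retzius-like nuclei for StressPP minus ControlPP, and Cadm1 in Sst-like (0.40), Lrrc4c in Lamp5-like (0.41) and Clstn2 in newly formed oligodendrocyte-like nuclei (-0.97) for StressPP minus NP, each value a log2 fold change. The second list held 29 synaptic scaffolds, with 623 tests of which none passed. At an unadjusted p under 0.05 14 were higher and 6 lower for ControlPP minus NP, 1 and 8 for StressPP minus ControlPP, and 15 and 18 for StressPP minus NP, or 3.21%, 1.44% and 5.30% of its tests beside the same shares of all genes. Dlgap2, which binds PSD-95, had a log2 fold change of -1.06 ± 0.26 in Cajal-Retzius-like nuclei for StressPP minus ControlPP (adjusted p = 0.153). For the genes of both lists named in Cajal-Retzius-like nuclei, the share of all genes in that class is the one to set beside them. It was 7.50% at an unadjusted p under 0.05 (edgeR) in StressPP minus ControlPP and 5.87% in ControlPP minus NP. For ControlPP minus NP the log2 fold changes were 0.35 for Rims2 in CA1-like, -0.58 for Dlgap4 in Lamp5-like and 0.62 for Dlgap2 in Cajal-Retzius-like nuclei. The others were -0.45 for Dlg2 in Cajal-Retzius-like and -0.91 for Apba1 in endothelial-like nuclei (StressPP minus ControlPP), and -0.60 for Dlgap4 in Lamp5-like, -0.56 for Dlg4 in microglia-like and -0.42 for Apba1 in Sst-like nuclei (StressPP minus NP).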

How the data were processed

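Per the labels and the study's methods, nuclei from frozen dorsal hippocampal punches were run on 10x Chromium 3' v3.1 and the authors aligned reads to mm10 with Cell Ranger (7.1.0 in the methods and labels, 7.0.0 in the matrix headers). The deposited filtered matrices hold UMI counts per gene and barcode, not normalized and not corrected for free RNA. The ambient-RNA correction, doublet calls and annotation of the study were not used here.

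A barcode was dropped at fewer than 200 detected genes or more than 5% of UMIs from mitochondrial genes, which removed 113. Doublets were scored against simulated ones, and the top 0.8% per 1000 barcodes of each library were removed (7.47% in all). Nuclei were clustered with scanpy 1.11.5 (2000 variable genes, 30 components, 15 neighbours, resolution 1), leaving out the 37 genes and both further lists. A cluster took a class name where its markers averaged a log2 fold of at least 2 with at least 3 detected, and led the next list by 1.5 or held a marker among its leading genes. Interneurons were clustered again and named from their own markers (log2 fold of at least 1, margin 0.5). Mossy-like and newly formed oligodendrocyte-like nuclei lay close to their next list (CA3 and oligodendrocyte), and 8172 nuclei in unnamed clusters and 569 interneurons of no subtype were left out. Some lists marked their class only in part. Of the 7 markers of thalamic or midbrain GABAergic-like nuclei, 2 were highest in that class. The same held for 2 of 6 markers of mossy-like nuclei and for 2 of 5 each of Pvalb and Lamp5 interneuron-like nuclei. Unnamed clusters held 3.18% to 16.8% of a library.

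Counts were summed per mouse and class (at least 10 nuclei, at least 3 mice per group) and fitted with edgeR 4.0.16 (filterByExpr, TMM, glmQLFTest, all 3 groups in 1 fit), with Benjamini-Hochberg adjustment over the genes of a class. DESeq2 1.42.0 was an alternative. Fits were tested on simulated data. Depth sets the precision: at 40602582 to 96211264 UMIs per library, genes under about 10 CPM in small classes rest on few molecules. Higher levels can do so too. In the StressPP mice the 40.0 to 109 CPM of Lrrtm3 in pericyte or smooth muscle-like nuclei were 2 to 10 UMIs. In StressPP replicate 1 the 15.8 CPM of Il1rapl2 in Vip or Cck interneuron-like nuclei were 8 UMIs. Named were, in each comparison, every call and the 5 smallest p-values, and 3 per further list. Values per mouse were given for genes at least 4-fold over their median class and 1 per role. The genes, lists and markers were chosen with earlier results of these data known. Gene spans are from GENCODE M21 (18555 of 18577 tested genes), and 28 of the 37 genes had a RefSeq promoter entry.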

Additional observations from a re-analysis of the deposited data

Results flagged for a closer look

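Of 90 groups of 4 to 6 mice, from 32 combinations of a gene and a class (the 21 genes given by mouse in their highest class, and those named for small p-values), 7 had a mouse that lay further from the others than Dixon's 95% limit allows. Chance gives about 1 in 20 such groups. NP replicate 2, the library with the least depth, was the far mouse for Nrxn2 in oligodendrocyte precursor-like nuclei (950 CPM, the other NP mice 705 to 765) and for Adgrb2 in CA1-like nuclei (329 CPM, the others 148 to 207). Cbln1 was at 38.3 CPM in the thalamic or midbrain GABAergic-like nuclei of StressPP replicate 1, where the other StressPP mice were at 1.43 to 5.47 CPM. ControlPP replicate 4 had 34.0 CPM of Cbln4 in Sst interneuron-like nuclei against 12.8 to 15.6 CPM. Lrrtm3 in subiculum-like nuclei was at 1069 CPM in NP replicate 5 against 623 to 756 CPM, and Adgrl2 in the same class at 654 CPM in NP replicate 3 against 475 to 510 CPM. Tenm3 in thalamic or midbrain GABAergic-like nuclei was lower in ControlPP replicate 3, at 1552 CPM, than in the other ControlPP mice (2104 to 2208 CPM).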

How the results depend on the processing

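The number of adhesion tests called was 0 in each comparison and stayed 0 with other size factors, with at least 20 nuclei per mouse and without nuclei over 1% mitochondrial UMIs. Without the filter on low counts 1 test (Ntng1 in Lamp5 interneuron-like nuclei) was called in ControlPP minus NP, 5 in StressPP minus ControlPP (Il1rapl2 in Vip or Cck and in subiculum-like, Lrrtm4 and Il1rapl1 in Cajal-Retzius-like and Tenm2 in choroid plexus-like nuclei) and 4 in StressPP minus NP (both Il1rapl2 tests, Tenm2 in choroid plexus-like and Ntng1 in vascular leptomeningeal-like nuclei), beside 186, 161 and 229 calls over all genes. In StressPP minus ControlPP 1 test, Il1rapl2 in Vip or Cck-like nuclei, was also called by DESeq2 (34 calls over all genes, against 4), with batch as a term (3), with only the 2 groups in the fit (4) and without NP replicate 6 (3). With the same number of nuclei per mouse the 2 Cajal-Retzius tests were called in its place, beside 44 calls over all genes. Leaving out each mouse gave 0 to 0 calls, 0 to 1 and 0 to 0 in the 3 comparisons. The causes of these changes were not tested.

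The unadjusted counts moved more. Without the filter they were 70, 67 and 130 (7.99%, 7.65% and 14.8%, where all genes gave 3.76%, 3.38% and 4.30%) against 39, 21 and 71, and with batch as a term that of StressPP minus ControlPP was 44 (6.48%, all genes 3.26%). For StressPP minus NP the count of 71 was 46 without NP replicate 2 or without StressPP replicate 1, 3 or 4 (all genes 3.06%, 3.38%, 3.21% and 3.17%), it was 125 without NP replicate 4 (all genes 5.49%), and it was 105 without StressPP replicate 2 or 5 (all genes 5.51% and 5.29%). For ControlPP minus NP the count of 39 was 22 without NP replicate 2 (all genes 2.32%) and 67 without NP replicate 4 (all genes 4.23%). For StressPP minus ControlPP the count of 21 was 57 without StressPP replicate 5 (all genes 4.68%) and 35 without ControlPP replicate 2 (5.06%, all genes 2.54%).

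None of the adhesion genes named for small p-values changed direction under any alternative run. They were picked for those p-values in these same data, so a change of direction was unlikely from the start. The genes named from the further lists are not covered. The highest class was the same for 35 to 37 of the 37 genes when each mouse was left out, for 36 with the mean of CPM per nucleus, 35 with at least 20 nuclei and 37 without nuclei over 1% mitochondrial UMIs, and the genes that moved (Tenm4, Tenm2, Ptprd, Il1rapl1, Cbln1 and Adgrb1) had overlapping levels in their highest and next class. No paired analysis was possible because the replicate numbers were given in accession order and name no shared litter, animal or day. C1ql1, Cbln1, Cbln2 and Cbln4 passed the filter on low counts in 2 to 5 of the 24 classes, and the groups were not compared for them in the others.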
